A study of Mus musculus with 36 samples.

Results

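Olfactory receptor genes (symbols Olfr followed by a number) were followed through 3 lists of histone-mark peaks that differed between CSE-knockout and wild-type mouse aortic smooth muscle cells. The members were all listed peaks whose annotated gene symbol begins with Olfr and a digit, whatever the annotation. There were 84 such peaks of 78 genes, among 13958 listed peaks of 9822 genes. The H3K9me3 list held 78 of the Olfr peaks, of 73 genes, among 5374 peaks. The H3K9ac list held the other 6, of 6 genes, among 8115 peaks, and the H3K4me3 list held 0 among 469.

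The study used ChIP-seq, in which chromatin is precipitated with an antibody to a histone mark and its DNA sequenced. Cells were primary aortic smooth muscle cultures from wild-type C57BL/6N mice or from mice lacking CSE in the whole body. CSE, the product of Cth, is cystathionine gamma-lyase, an enzyme that makes hydrogen sulfide. Every culture of both genotypes had been given angiotensin II, a vasoconstrictor peptide, at 1 µM for 24 h, and an unstimulated group was not analysed here. The 36 samples formed 12 groups of 3: immunoprecipitated or input chromatin, for 3 marks, in each genotype. The labels do not state whether the 3 samples of a group came from separate animals or cultures, nor the animals' age or sex, and since the deletion was present in every cell of the mouse, differences present before isolation cannot be told apart from differences in the culture.

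Olfactory receptors are G protein-coupled receptors that bind odorants in the sensory neurons of the nose. Each neuron expresses a single receptor allele and keeps the others silent. The genes lie in large clusters on many chromosomes, and their coding sequence usually sits in a single exon. In olfactory neurons the silent clusters are packed in heterochromatin carrying H3K9me3, a mark written by methyltransferases such as SETDB1 and SUV39H1 and bound by HP1 proteins. H3K9ac and H3K4me3 are found at active promoters. Aortic smooth muscle is not a tissue of smell, although some receptors are known to be expressed outside the nose.

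Upstream sequences of 3 members are shown because these genes carry values reported below: Olfr186 had the lower H3K9me3 peak closest to a gene start, Olfr124 had the largest log2 fold change among the higher peaks, and Olfr566 had the highest mean signal. Each is the 250 bases before the gene's RefSeq start in assembly GRCm38.p6, written 5′ to 3′ on the strand of the gene. Olfr186 lies at chr16:59027928-59028177 on the minus strand, Olfr124 at chr17:37804819-37805068 on the plus strand and Olfr566 at chr7:102858766-102859015 on the minus strand. Capitals mark a match to TAATTA, the core bound by homeodomain factors such as LHX2.
Olfr186: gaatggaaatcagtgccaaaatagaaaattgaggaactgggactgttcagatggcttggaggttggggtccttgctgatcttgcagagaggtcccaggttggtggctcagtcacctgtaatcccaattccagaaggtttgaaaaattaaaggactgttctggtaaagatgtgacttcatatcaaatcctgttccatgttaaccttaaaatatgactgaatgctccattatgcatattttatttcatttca
Olfr124: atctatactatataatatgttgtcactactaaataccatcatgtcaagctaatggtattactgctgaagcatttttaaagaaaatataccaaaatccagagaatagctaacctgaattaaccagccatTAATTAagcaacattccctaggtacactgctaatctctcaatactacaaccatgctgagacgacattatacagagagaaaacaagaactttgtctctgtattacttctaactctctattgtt
Olfr566: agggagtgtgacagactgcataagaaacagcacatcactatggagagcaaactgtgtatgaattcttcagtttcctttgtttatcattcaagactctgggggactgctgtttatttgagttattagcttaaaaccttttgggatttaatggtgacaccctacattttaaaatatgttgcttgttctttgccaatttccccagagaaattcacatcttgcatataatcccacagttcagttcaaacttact
Only the Olfr124 window of these 3 held TAATTA, and none held CCCNNGGG, the core bound by EBF factors.

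The H3K9me3 comparison asked where this heterochromatin mark differed between genotypes. Olfr peaks went in both directions in nearly equal number: 38 (36 genes) were higher in the knockout and 40 (39 genes) were lower. The share higher was 48.7% of 78 (exact 95% binomial interval 37.2 to 60.3%, which treats peaks as independent and covers counting error only), against a background of 61.0% over all 5374 listed peaks. The background lies outside that interval, but neighbouring peaks are not independent and no test of the difference was made. Within each direction the sizes were close to those of the whole list. Higher Olfr peaks had a median log2 fold change of 3.33 (all higher peaks, 3.21) and ranged from 2.29 to 4.70 in the authors' deposited table. Lower Olfr peaks had a median of -2.99 (all lower peaks, -3.05), with sizes from 2.20 to 4.16.

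None of these differences passed adjustment. The FDR of every Olfr peak is 1 in the authors' deposited table, whose test the sources used here do not name, and 0.0% of all listed H3K9me3 peaks are under 0.05. All listed peaks have an unadjusted p under 0.05, since that is how they were selected. The Olfr values run from 0.00108 to 0.0499. At p under 0.01 stood 19 Olfr peaks, 11 higher and 8 lower, or 24.4% against a background of 24.9%. No Olfr peak was under 0.001, where the list has 111 peaks. The directions below are therefore those of the authors' selected peaks, and no spread between samples stands behind them here.

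The peaks were weak in both genotypes. Median mean signal was 2.80 log2 normalised reads, or 6.99 reads, close to the 6.68 reads of the whole list. Among higher Olfr peaks the median was 3.60 in knockout and 0.22 in wild type. Among lower Olfr peaks it was 0.44 in knockout and 3.78 in wild type. The group with less signal was under 2 reads (log2 of 1) in 29 higher peaks (76.3%; all higher peaks, 69.2%) and in 27 lower peaks (67.5%; all lower peaks, 80.6%). It stood at the lowest value of its column, 0.732 reads in wild type or 0.747 in knockout, in 18 of 38 higher and 6 of 40 lower peaks (whole list, 1030 of 3278 and 547 of 2096), so those fold changes depend on the authors' treatment of low counts, not stated in the sources used here. With those peaks left out, 20 peaks were higher and 34 lower (37.0% higher), with medians of 2.81 and -2.94. The same step left 2248 higher and 1549 lower peaks in the whole list, with medians of 2.97 and -2.91.

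**Figure D1:**
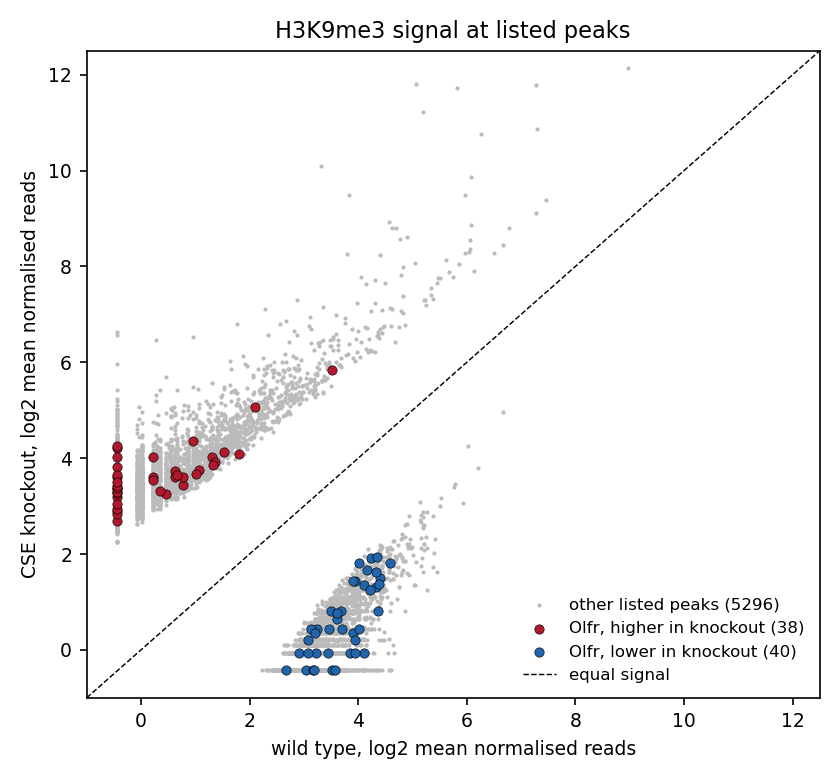
Mean H3K9me3 signal of each listed peak in knockout (vertical axis) against wild type (horizontal axis), both in log2 normalised reads. Coloured points are the 38 higher and 40 lower Olfr peaks and grey points are the other listed peaks. Selected peaks fill 2 bands either side of the diagonal, and most Olfr peaks lie at the low end of both, with Olfr566 and Olfr1344 the highest.

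The strongest Olfr peaks were both higher in the knockout. At Olfr566, a gene of the chromosome 7 cluster that holds class I (fish-like) receptors, the authors' deposited table gives 5.84 log2 reads in knockout and 3.51 in wild type, a difference of 2.33 (p = 0.0297). That peak, at chr7:102842612-102843466, lies 13.8 kb from the annotated start. The Olfr1344 peak gives 5.07 and 2.10, a difference of 2.97 (p = 0.0302 in the authors' deposited table), and covers the start of its gene at chr7:6439514-6440854. Both peaks had more than 2 reads in both genotypes, unlike most other members.

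Of the 38 higher peaks, the 10 with the smallest p were those of Olfr1254, Olfr124, Olfr398, Olfr134, Olfr1356, Olfr472, Olfr961, Olfr1035-ps1, Olfr1260 and Olfr310. At Olfr1254 (chromosome 2) the knockout value was 3.82 and the wild-type value -0.45, a log2 fold change of 4.27 with p = 0.00131 in the authors' deposited table. Olfr124 (chromosome 17) had 4.25 against -0.45, the largest change of the higher peaks at 4.70 (p = 0.00159 in the authors' deposited table). All but Olfr1356 and Olfr1260 had the lowest wild-type value. Those exceptions had 4.03 against 0.22 (Olfr1356, chromosome 10, p = 0.00234) and 4.36 against 0.96 (Olfr1260, chromosome 2, p = 0.00759) in the authors' deposited table. The remaining 6 had log2 fold changes from 3.87 (Olfr310, p = 0.00785) to 4.66 (Olfr398, p = 0.00222) in the authors' deposited table. Their 10 peaks lay on chromosomes 2, 7, 9, 10, 11 and 17.

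Lower peaks of smallest p belonged to Olfr773, Olfr507, Olfr538, Olfr455, Olfr1306, Olfr165, Olfr29-ps1, Olfr384, Olfr1436 and Olfr56. Olfr773 (chromosome 10) had -0.06 in knockout and 4.10 in wild type, a log2 fold change of -4.16 with p = 0.00108 in the authors' deposited table, the smallest p of any Olfr H3K9me3 peak. Olfr507 (chromosome 7) had -0.06 and 3.95, a change of -4.01 (p = 0.00212 in the authors' deposited table). Olfr455 on chromosome 6 and Olfr1306 on chromosome 2 had the lowest knockout value, -0.42, beside wild-type values of 3.58 and 3.51. In the other 6 the knockout value lay between -0.07 and 0.81 and the wild-type value between 3.22 and 4.36 in the authors' deposited table, with p from 0.00418 (Olfr538) to 0.0105 (Olfr1436 and Olfr56). The highest wild-type value there was that of Olfr384 on chromosome 11.

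Olfr peaks sat nearer to gene starts than the list as a whole. Their median distance to the annotated start was 5.75 kb (all peaks, 22.7 kb), and 57 of 78 (73.1%) lay within 10 kb (all peaks, 30.1%). The clusters described below hold 1373 Olfr genes in 34.2 Mb, and the part of that gene density in the difference was not tested. Upstream of the start lay 44 peaks and downstream 33. By annotation 48 were distal intergenic (61.5%; all peaks, 54.4%), 7 intronic (8.97%; all peaks, 29.8%), 21 in a promoter within 3 kb of the start (26.9%; all peaks, 12.3%), 1 in a 3′ UTR (Olfr1260) and 1 downstream of a gene (Olfr1308). Just 5 peaks (6.41%; all peaks, 17.0%) overlapped the annotated gene: Olfr398, Olfr1502, Olfr1344, Olfr1079 and Olfr1300-ps1. All 5 were higher in the knockout, a set singled out after its values were seen.

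**Figure D2:**
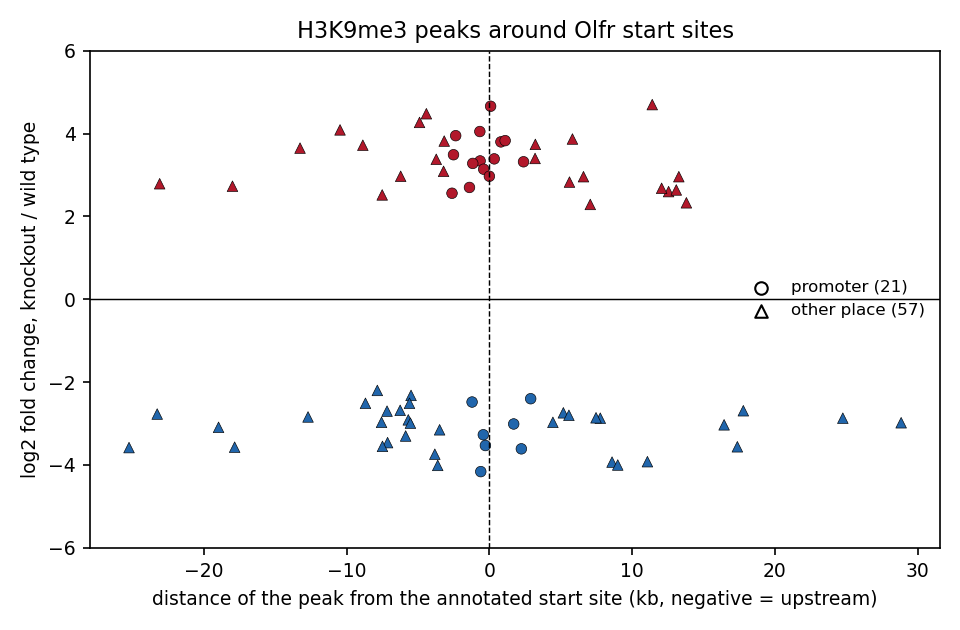
Log2 fold change of each of the 78 Olfr H3K9me3 peaks (vertical axis, knockout over wild type) against its distance in kb from the annotated start (horizontal axis, negative upstream). Circles are the 21 promoter peaks and triangles the other 57, red higher and blue lower in knockout; 57 of the 78 peaks lie within 10 kb of the start, and circles are more often red (14) than blue (7).

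Promoter peaks leaned to the higher side, with 14 higher and 7 lower (66.7% higher). Over the whole list promoter peaks were also mostly higher, 463 against 200. Within 1 kb of the start stood 10 Olfr peaks. The higher ones belonged to Olfr398, Olfr740, Olfr757-ps1, Olfr1502, Olfr1035-ps1, Olfr1079 and Olfr1344, and all but Olfr1344 had the lowest wild-type value. Olfr398 had 4.21 in knockout and -0.45 in wild type (log2 fold change 4.66, p = 0.00222 in the authors' deposited table), and its peak at chr11:73983744-73984520 lay 0.086 kb from the start. Olfr1035-ps1 had 3.60 and -0.45 (4.05, p = 0.00680), Olfr1502 had 3.35 and -0.45 (3.80, p = 0.0107), and the other 3 had changes from 3.14 to 3.39, all in the authors' deposited table.

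The lower promoter peaks within 1 kb were those of Olfr771, Olfr773 and Olfr186. Olfr771 and Olfr773 are neighbours on chromosome 10, and their peaks at chr10:129165175-129165566 and chr10:129188023-129188477 had 0.44 against 3.71 (log2 fold change -3.27, p = 0.0132) and -0.06 against 4.10 in the authors' deposited table. Olfr186 had -0.07 in knockout and 3.45 in wild type, a change of -3.53 (p = 0.0140 in the authors' deposited table), at 0.278 kb from the start, just upstream of the sequence printed above. In all 3 the wild-type value was over 3 and the knockout value under 1 on the log2 scale. Between 1 and 2 kb were Olfr1043, Olfr439-ps1 and Olfr596 (higher) and Olfr401 and Olfr1294 (lower). Between 2 and 3 kb were Olfr756-ps1, Olfr450, Olfr260-ps1 and Olfr961 (higher) and Olfr1084 and Olfr1204 (lower). Changes in these genes lay between -3.61 (Olfr1204) and 3.95 (Olfr961) in the authors' deposited table.

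Gene models limit these positions. All 73 symbols matched RefSeq, where 61 are protein-coding, and 13 symbols mark pseudogenes (16 peaks, 10 higher and 6 lower). Olfr367-ps is in both groups, with a pseudogene symbol but protein-coding in RefSeq. Measured to the RefSeq gene, 16 of the 21 promoter peaks were within 3 kb and 50 of all 78 within 10 kb. Among the 54 member genes with a RefSeq promoter sequence, no listed peak overlapped its own gene's window, which runs from 250 bases before the start to 50 after it. Olfr1344, whose peak covers the start, has no sequence there and is not in that count. The nearest RefSeq start of a gene outside the family was a median of 131 kb away. It was closer than the authors' annotated Olfr start for 3 peaks: those of Olfr16 (Gm35742), Olfr1029 (Gm52520) and Olfr443-ps1 (Gm34905). The RefSeq Olfr gene can lie farther off than that annotated start. The Olfr56 peaks were 161 and 90.6 kb from it, with other starts 6.36 and 7.64 kb away. The Olfr322 peak was 14.6 kb from its RefSeq gene, with the Trim58 start 10.1 kb away. In all, 7 peaks overlapped a RefSeq gene outside the family.

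A single gene, Olfr277-ps1, had 3 listed H3K9me3 peaks. All 3 were higher in the knockout, by 2.79, 2.73 and 3.72 on the log2 scale (p = 0.0403, 0.0471 and 0.0102 in the authors' deposited table). They lay between 8.87 and 23.1 kb from the annotated start on chromosome 14, inside an intron of Fgf14, which encodes a protein that regulates sodium channels, and outside every Olfr cluster. Another 3 genes had 2 peaks each. Those of Olfr56 were both lower (-3.30 and -3.46). Olfr1490 had a lower peak (-2.87) and a higher one (2.68) 3.98 kb apart, and Olfr709-ps1 had a lower (-2.68) and a higher (2.52) peak 952 bp apart, as the authors' deposited table gives them. Over the whole list, 62 of 584 neighbouring pairs within 10 kb had opposite directions (10.6%); among the 4 such Olfr pairs it was 2.

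Olfr H3K9me3 peaks were spread over 12 of the 19 chromosomes that hold Olfr genes in RefSeq. The other 7 chromosomes hold 52 of its 1428 Olfr genes. The split by direction varied by chromosome, in small counts that were not tested. On chromosome 16 all 5 Olfr peaks were lower, where 34.1% of the other listed peaks were higher. On chromosome 11 the split was 1 higher and 5 lower although 63.4% of other peaks there were higher. Chromosome 14 had 7 higher and 2 lower (other peaks 66.4% higher), chromosome 17 had 5 and 1 (62.8%), and chromosome 7 had 8 and 4 (73.8%). Chromosome 2, with the most Olfr genes, had 10 and 9 (41.5%). Some genes count more than once. The 9 peaks of chromosome 14 came from 7 genes, and all those of Olfr277-ps1, outside every cluster, were among the higher ones. The 6 peaks of chromosome 11 came from 5 genes, and the lower ones include those of Olfr56, far from its RefSeq gene.

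If Olfr peaks had split as the other peaks of their own chromosomes did, 42.2 of 78 would have been higher (54.1%), against the 38 listed. The majority direction of Olfr peaks matched that of the other peaks on 7 of the 11 chromosomes that had a majority. Many Olfr genes have close copies, so values of single genes are uncertain where reads match several of them, and the authors' treatment of such reads is not stated in the sources used here. Relative to gene number, chromosome 14 had the largest share of its RefSeq Olfr genes listed (16.7%), followed by chromosomes 6 (13.9%) and 16 (11.1%). Chromosome 9, with 179 Olfr genes, had 2.23%.

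**Figure D3:**
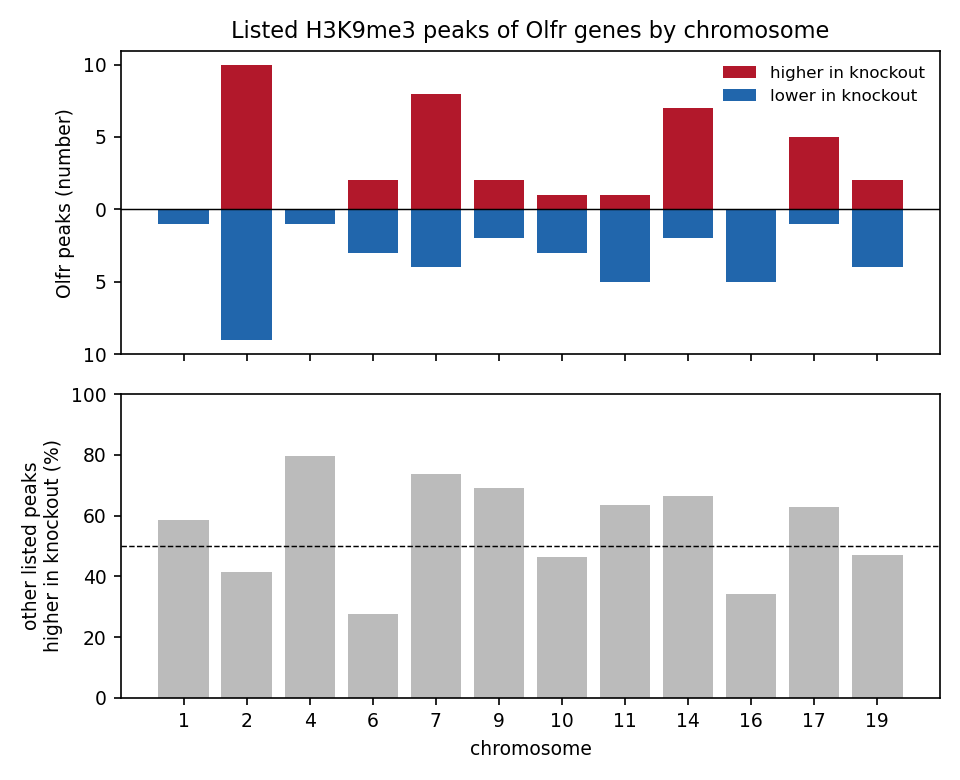
Upper panel, number of listed Olfr H3K9me3 peaks on each chromosome that has any, higher in knockout above the zero line and lower below it; lower panel, percentage of the other listed peaks there that were higher, with a dashed line at 50%. Chromosomes 16 (0 higher, 5 lower) and 11 (1 and 5) lean to lower, and 14 (7 and 2) and 17 (5 and 1) to higher. These counts are small, include genes with several peaks and were not tested.

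Clusters were drawn from RefSeq as runs of at least 5 Olfr genes with gaps under 1 Mb. This gave 31 clusters holding 1373 genes over 34.2 Mb. Of the 78 Olfr peaks, 69 lay in 22 of these clusters and 9 outside. Another 33 listed H3K9me3 peaks inside clusters were annotated to other genes (17 higher, 16 lower), so that the clusters as regions held 51 higher and 51 lower peaks. Listed H3K9me3 peaks were denser inside (2.98 per Mb) than outside (1.98 per Mb). For H3K9ac the order was the opposite, 1.61 against 3.02 per Mb, and for H3K4me3 it was 0.0584 against 0.175 per Mb. These are densities of selected peaks only and no test was made of them.

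**Figure D4:**
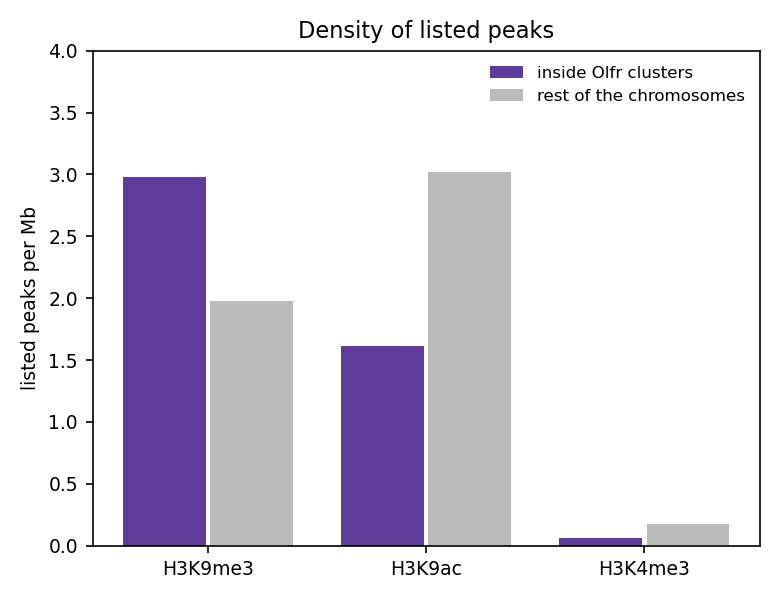
Listed peaks per Mb inside the 31 Olfr clusters and in the rest of the genome for the 3 marks. Only the H3K9me3 bar is taller inside the clusters (2.98 against 1.98 per Mb).

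The cluster with most peaks was the largest, on chromosome 2 from 85330967 to 90401674, with 293 Olfr genes and 10 Olfr peaks (6 higher, 4 lower). Higher peaks there were those of Olfr1035-ps1, Olfr1043, Olfr1079, Olfr1110, Olfr1254 and Olfr1260, and lower ones those of Olfr1029, Olfr1084, Olfr1085 and Olfr1204. Directions were mixed along it: Olfr1079 (2.94 in knockout, -0.45 in wild type) and Olfr1084 (1.94 and 4.34) in the authors' deposited table are near neighbours in opposite directions. Another 4 clusters tied at 6 Olfr peaks each. The chromosome 19 cluster from 11828077 to 13919972 has 91 genes and 6 peaks, 2 higher (Olfr1490, Olfr1502) and 4 lower (Olfr1436, Olfr1462, Olfr1490, Olfr1491).

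The chromosome 17 cluster, 37085191 to 38336097, adjoins the major histocompatibility complex. It has 58 genes and 6 peaks, of which 5 were higher: Olfr91, Olfr756-ps1, Olfr757-ps1, Olfr124 and Olfr134. Their knockout values ran from 2.69 to 4.25 and their wild-type values from -0.45 to 1.36 in the authors' deposited table. The sixth, Olfr135, was lower (-0.07 against 3.07, p = 0.0272) and is the next listed Olfr gene to Olfr134 (4.03 against -0.45, p = 0.00230 in the authors' deposited table). The other clusters with 6 peaks were split 3 higher (Olfr1298, Olfr1300-ps1, Olfr1308) and 3 lower (Olfr1282, Olfr1294, Olfr1306) on chromosome 2 from 111230853 to 112167982 (47 genes), and 4 higher (Olfr723, Olfr729, Olfr731, Olfr740) and 2 lower (Olfr743, Olfr746) on chromosome 14 from 49894258 to 52495695 (37 genes). In the class I cluster on chromosome 7 (102476773 to 105369317, 158 genes), Olfr566, Olfr596 and Olfr260-ps1 were higher and Olfr677 was lower (0.44 against 3.14, p = 0.0341 in the authors' deposited table).

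For H3K9ac, a mark of active chromatin, the family was almost missing from the list. Of 1428 RefSeq Olfr genes 6 were listed (0.42%), against 18.1% of all 21900 protein-coding genes. The 1428 include pseudogenes: 1110 are protein-coding, as are 4 of the 6. For H3K9me3 the family did not stand out in the share of genes listed: 5.50% of its protein-coding members and 5.52% of all protein-coding genes had a listed peak. Of the 6 H3K9ac peaks 5 were lower in the knockout (83.3%), close to the background of 77.2% of all listed H3K9ac peaks. An FDR under 0.05 was reached by 2 of the 6 (background 16.6%), both lower. Their median mean signal was 42.7 reads (all listed H3K9ac peaks, 40.8 reads).

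Olfr545 and Olfr156 were the members under the FDR threshold. Olfr545, a class I receptor gene on chromosome 7, had 4.41 log2 reads in knockout and 6.03 in wild type at an intergenic peak, chr7:102506982-102507853, 7.41 kb upstream (log2 fold change -1.62, p = 0.000461, FDR 0.0191 in the authors' deposited table). Olfr156 on chromosome 4 had 5.21 and 6.38 at a promoter peak, chr4:43823782-43824804 (-1.17, p = 0.000863, FDR 0.0292 in the authors' deposited table). That peak also covers part of Gm30318, lies 2.35 kb from the RefSeq Olfr156 gene and has another start 0.628 kb away. Both had clear signal in both genotypes.

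The other 4 did not pass the FDR threshold. Olfr1421-ps1 (chromosome 19) had 2.19 and 4.41, a log2 fold change of -2.23 (FDR 0.0768), 18.1 kb from its start. Olfr155, the neighbour of Olfr156, had 4.53 and 5.94 (-1.41, FDR 0.119), and Olfr56 (chromosome 11) had 6.45 and 7.12 (-0.67, FDR 0.243), all in the authors' deposited table. The single higher peak, of Olfr753-ps1 (chromosome 17), had 5.36 in knockout and 4.30 in wild type (1.06, FDR 0.262 in the authors' deposited table). Its peak lies 14.8 kb from the RefSeq gene and 7.98 kb from the start of Ubd, a ubiquitin-like gene induced by cytokines. None of the 6 H3K9ac peaks overlapped the RefSeq gene of its own symbol.

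**Figure D5:**
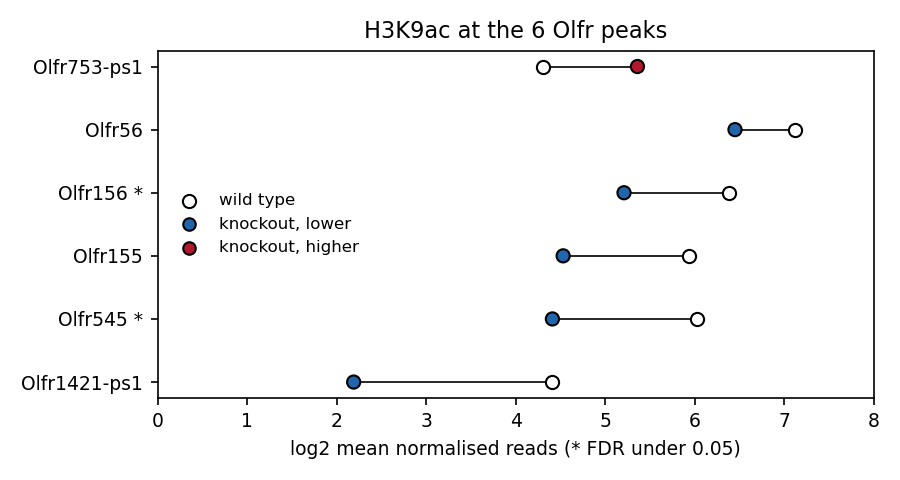
H3K9ac signal of the 6 listed Olfr peaks in knockout and wild type, in log2 normalised reads from the authors' deposited table, with open circles for wild type, filled circles for knockout and an asterisk for an FDR under 0.05. Wild type is higher in 5, and Olfr753-ps1 is the exception (5.36 in knockout, 4.30 in wild type).

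Olfr56 was the only member listed for 2 marks. Both marks were lower in the knockout, with log2 fold changes of -3.30 and -3.46 for H3K9me3 and -0.67 for H3K9ac in the authors' deposited table. The peaks are at separate places, 161 kb and 90.6 kb (H3K9me3) and 46.7 kb (H3K9ac) from the RefSeq Olfr56 gene at chr11:49134173-49135387. The H3K9ac peak overlaps Ifi47, an interferon-inducible GTPase gene, and Gm12188. The authors' annotation uses a longer Olfr56 model, so the assignment to the receptor depends on that model.

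Inside the 31 clusters, 55 listed H3K9ac peaks were found (8 higher), of which 4 were Olfr peaks. The others were annotated to genes of other families, among them Zyx, Trim27, Spaar, Gpx5 and Gpx6. Both H3K4me3 peaks inside clusters were on chromosome 6, at Fam131b and Zyx, the latter a focal adhesion protein gene. The H3K4me3 list had no Olfr peak, where 1.83% of all protein-coding genes had a listed peak. As that list carries no signal, fold change or p, it gives no direction, and an Olfr gene missing from it may have had no peak or no selected difference.

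Genes that act with olfactory receptors were followed as 2 lists. Of 23 genes of the transduction cascade, 3 had listed H3K9me3 peaks (13.0%; all protein-coding genes, 5.52%). Prkg1, the cGMP-dependent kinase that relaxes smooth muscle, had 3 higher intronic peaks (3.24, 3.49 and 3.47), and Camk2a (-4.17) and Pde1c (-2.81), a kinase and a phosphodiesterase of calcium signalling, had 1 lower peak each in the authors' deposited table, all with an FDR of 1. The wild-type value of the 3 Prkg1 peaks (-0.45) and the knockout value of the Camk2a peak (-0.42) were the lowest of their columns. These H3K9me3 peaks lay a median of 46.0 kb from the annotated start. In H3K9ac, 3 of the 23 were listed (13.0%; all protein-coding genes, 18.1%). Cngb1, a subunit of the cyclic nucleotide-gated channel, had 2 higher and 2 lower peaks, of which 1 higher peak passed (log2 fold change 1.35, FDR 0.0135 in the authors' deposited table). Pde4a, a cAMP phosphodiesterase, had 2 higher peaks and Ric8b, a chaperone of the olfactory G protein, 1 lower peak, without passing.

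Of 22 genes of receptor choice and cluster chromatin, none had a listed H3K9me3 peak and 6 had H3K9ac peaks (27.3%; 8 peaks, 3 higher, 5 lower). Over all protein-coding genes 5.52% and 18.1% were listed for these marks, and 77.2% of all listed H3K9ac peaks were lower. Trim28, the co-repressor that recruits SETDB1, had a lower promoter peak (6.36 against 7.39, log2 fold change -1.03, FDR 0.0227 in the authors' deposited table) and a higher intronic peak that did not pass (1.22, FDR 0.269). The HP1 genes Cbx1 (1.11), Cbx5 (-1.52 and -0.93) and Cbx3 (-1.15) and the transcription factor genes Ebf4 (2.61) and Emx2 (-0.86) did not pass, with FDRs from 0.101 to 0.241 in the authors' deposited table. H3K4me3 listed 1 of the 22 (4.55%; all protein-coding genes, 1.83%).

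Other chemosensory families gave a comparison. Vomeronasal receptors (Vmn1r and Vmn2r), which detect pheromones, had 57 H3K9me3 peaks of 51 genes among 645 (7.91%; all protein-coding genes, 5.52%). Of these peaks 32 were higher and 25 lower (56.1% higher; all listed peaks, 61.0%). Promoters held 8 of them (14.0%), and the median distance was 8.22 kb. The 2 families differed in the promoter share: 6 of 22 Vmn1r peaks (27.3%), close to the 26.9% of Olfr peaks, and 2 of 35 Vmn2r peaks (5.71%), with no test made. Taste receptors (Tas1r and Tas2r) had 3 H3K9me3 peaks, all higher, of 3 genes among 43 (6.98%). Trace amine-associated receptors (Taar) had 0 among 16 genes. For H3K9ac, Vmn1r and Vmn2r genes had 1 peak in all, which was lower (0.155% of genes listed; all protein-coding genes, 18.1%).

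Markers of cell types were looked up in the lists. Of 8 smooth muscle genes 6 (Acta2, Tagln, Smtn, Myocd, Des and Lmod1) had listed H3K9ac peaks. Of 8 olfactory sensory neuron genes, Omp and Gnal among them, none was listed for any of the 3 marks. Over all protein-coding genes the shares listed were 18.1% (H3K9ac), 5.52% (H3K9me3) and 1.83% (H3K4me3), so an absence among 8 genes says little. The smooth muscle peaks were 2 higher and 6 lower. Of the endothelial genes 1 of 4 (Pecam1, 1 higher peak), of the fibroblast genes 2 of 3 (1 higher, 1 lower) and of the leukocyte genes 2 of 3 (Aif1 and Cd14, 3 higher peaks) were listed for H3K9ac, in a list of which 77.2% was lower. None of these 6 peaks of other cell types had an FDR under 0.05, against 2 of the 8 smooth muscle peaks and 16.6% of all listed H3K9ac peaks. These counts are small and were not compared by a test. The part of those cells in the Olfr results was not tested. Listing requires a difference between genotypes, so these counts do not measure expression and cannot check the labelled cell type. Cth, the deleted gene, had 0 listed peaks, so the tables give no check of the genotype.

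Promoter sequences of 54 of the 78 member genes were in the RefSeq table, which has 944 Olfr promoters among 27025. The window runs from 250 bases before to 50 after the annotated start. For 72.7% of the Olfr models (79.6% of members) that start is the ATG of the coding sequence, against 6.74% of all genes, so for them the window is upstream of the coding sequence rather than of a mapped transcription start. The 3 sequences shown above are from models that start before their ATG. Olfr windows were poor in GC, with a median of 35.0% (members, 35.7%; all genes, 52.7%), and had a median of 1 CpG (members, 1; all genes, 7). No CpG at all was found in 38.9% of the member windows, 33.5% of Olfr windows and 5.82% of all.

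The TAATTA core, the same on both strands, was in 9 of 54 member windows (16.7%), in 18.4% of Olfr windows and in 5.40% of all windows. Among genes outside the family with GC of at most 40% it was in 17.5% (414 of 2364), close to the Olfr share. The CCCNNGGG core, also searched on both strands, was in 3.70% of member windows and 3.07% of Olfr windows. It was in 13.5% of all windows and 2.58% of the GC-poor windows of other genes. The Olfr share differed by gene model: 1.31% (9 of 686) where the model starts at the ATG and 7.75% (20 of 258) where it starts before it. For TAATTA the same shares were 18.7% and 17.8%. The member with the printed match, Olfr124, had no listed peak at its promoter (distance 11.4 kb). A match describes the letters only.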

How the data were processed

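ChIP-seq of H3K9me3, H3K9ac and H3K4me3 and matched input was done in 36 samples of 12 groups. Per the submitters' processing notes, CASAVA 1.4 was used with build mm9, but gene positions in the tables match GRCm38. Of the H3K4me3 peaks, 61.4% lie at a start annotated by the authors and 40.9% hold a RefSeq start of GRCm38.p6. Coordinates are therefore taken as GRCm38. An aligner, a caller and the test between genotypes were not given in the sources used here. Per the file headers, the authors deposited for each selected peak of H3K9me3 and H3K9ac the log2 mean normalised reads of all, knockout and wild-type libraries, the log2 fold change of knockout over wild type, a p-value and an FDR. The H3K4me3 table holds annotation only. The authors' normalisation is likewise unstated, the tables hold no value per sample, and the depth is unknown. Tests planned for values per sample were therefore not run. The p-values deposited by the authors can reflect technical spread alone.

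Peaks were picked by gene symbol, counted by direction, placed on RefSeq GRCm38.p6 genes, and compared with all listed peaks. Python 3.11.15, numpy 2.4.6, pandas 2.3.3 and scipy 1.17.1 were used, and the functions were tested on simulated data. Motifs CCCNNGGG and TAATTA were searched on both strands. Members and lists were chosen with earlier results of these data known. Genes named are, per mark and direction, the 10 Olfr peaks of smallest p, those with promoter peaks, with 3 or more peaks or in 2 marks, all in H3K9ac, those of the 3 clusters with most peaks (4 tie for the second place and all are given), and Cth; any further gene was chosen with its values in view. The alternatives included stricter p and FDR, promoter or near peaks, 1 call per gene or run, no pseudogenes, signal limits and leaving out chromosomes.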

Additional observations from a re-analysis of the deposited data

How the results depend on the processing

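The near-even split of Olfr H3K9me3 peaks (48.7% higher) stayed within its counting interval in 21 of 23 alternatives. Among those 21, leaving out chromosomes X and Y removed no Olfr peak and so could not move the split. Leaving out any 1 chromosome other than chromosome 2 removed too few peaks to take the share out of the interval. The same holds for 1 call per gene, 1 call per run, peaks inside clusters only and the nearest-start filter. That these stayed within it was fixed in advance and says nothing about the split. The share higher ranged from 44.9 to 52.1% without any 1 of 12 chromosomes. It was 57.9% at p under 0.01, 46.6% with 1 call per gene and 48.5% with 1 call per run. It moved to 66.7% in promoter peaks and to 37.0% without peaks in which a group had the lowest value. Of the H3K9me3 genes, 21 were left with promoter peaks only and 19 at p under 0.01. No H3K9me3 Olfr peak was left at p under 0.001 or an FDR under 0.05. The H3K9ac share (16.7% higher, 1 of 6) became 0% at p under 0.01, p under 0.001 and FDR under 0.05, without pseudogene symbols, with a mean signal at or above the table's median and without chromosome 17, since each leaves out the Olfr753-ps1 peak. H3K9ac genes numbered 3 with promoter peaks only. The other 12 of 18 H3K9ac alternatives stayed within the interval of the H3K9ac share, which is wide. Of these, 4 kept all 6 peaks and changed nothing: 1 call per gene, the lowest-value filter, no chromosomes X and Y, and the nearest-start filter. The H3K4me3 count of 0 could not change, since both of its alternatives only remove peaks. Peaks inside clusters only (49.3% of H3K9me3 higher) and peaks whose nearest start is the authors' annotated Olfr start (50.7%) were added after seeing the data. No paired analysis was possible because the tables hold no value per sample. For the same reason leave-one-out fits and the other normalisations were not run, and the depth behind each value is unknown.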
